A study of Mus musculus with 15 samples.

Results

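The cell cycle and mitosis genes are 38 listed mouse genes of DNA replication and mitosis, found on the arrays by the RefSeq accession that each probe carries. Of these, 35 passed the filter on dim probes and were tested among 15622 genes, and Ccne2, Aurkb and Cenpf were not well above background on any of the 15 arrays. RNA was measured in tissues of female FVB/N mice on one-colour microarrays, which read the brightness of labelled RNA bound to gene probes, with 1 array per sample. The 4 neo-livers were liver tissue dissected out of the kidney, 250 to 300 days after 1000000 hepatocytes of FVB/N donors with a human alpha-1-antitrypsin (hA1AT) transgene had been placed under its capsule. The 4 host livers and 4 host kidneys came from such recipients, wild-type mice aged 48 to 55 weeks that had been given monocrotaline, a plant alkaloid that injures the liver, at 70 mg/kg in 2 doses 2 weeks apart. The 3 control livers came from normal mice aged 20 weeks. All host tissues shared the monocrotaline injury, so injury, transplant, age and, for the neo-liver, donor genotype cannot be told apart from the difference to control liver.

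Levels are given on a log2 scale on which 0 is the 75th percentile of an array, and a gene is called when limma's adjusted p, corrected over all 15622 genes by the Benjamini-Hochberg method, is under 0.05. The 75th percentile of the signal was 416 to 676.4 in neo-liver, 286.8 to 447.7 in host liver, 561.3 to 873.9 in host kidney and 389.3 to 424.3 in control liver. No spot was saturated, and the number of arrays limits the precision of each value. Markers of kidney epithelium were above background, 24 of 24, on the neo-liver arrays. The kidney share is the median level of 23 of them relative to host kidney, with the control liver level taken off both. It was 19.5%, 49.3%, 18.0% and 32.5% on neo-liver arrays 1 to 4, and no more than 0.022% on any host liver array. Hepatocyte markers, 8 of 8 above background in all liver tissues, summed to 212460 to 288967 in neo-liver, 364587 to 507712 in host liver, 13524 to 16480 in host kidney and 427283 to 442474 in control liver, in percent of the 75th percentile. Host kidney arrays filled a slide of their own, neo-liver and control liver arrays shared another, and the host livers lay on a pair of further slides, so slide and tissue cannot be told apart in any comparison with host kidney or host liver. Neo-liver against control liver is the comparison made within a slide. Nothing in the labels says that samples of a group came from separate mice, although equal replicate numbers went together across the 3 host tissues. The p-values therefore measure the spread between these samples, which may be technical in part.

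A cell that divides first licenses its origins of replication by loading the MCM helicase, then copies its DNA in S phase, and later builds a spindle, condenses its chromosomes and separates them. Cyclins switch on the Cdk kinases that drive these steps, E2F factors turn on the S phase genes, and the B-Myb, MuvB and Foxm1 complexes turn on the mitotic genes, most of which are silent in resting cells. Hepatocytes of an adult liver rarely divide, but re-enter the cycle after loss of tissue. Monocrotaline is used before hepatocyte transplantation because it hampers division of the recipient's own hepatocytes. In bulk tissue, more cells in cycle and more RNA per cycling cell cannot be told apart.

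Counted on every array of a group, more of the listed genes were above background in neo-liver than in the other tissues. Of the 38 genes, 35 were above background on every neo-liver array, 25 on every host liver array, 29 on every host kidney array and 24 on every control liver array. Over all genes tested, the share above background was 93.2 to 96.4% on neo-liver arrays, 82.5 to 87.7% on host liver arrays, 97.2 to 98.5% on host kidney arrays and 88.2 to 89.5% on control liver arrays, so its lowest values were in host liver. This share is per array and covers only genes that passed the filter, so it is not the same measure as the counts. The counts are therefore not read as a result about the listed genes. Of the 38 genes, single arrays had 35 in neo-liver, 25 to 35 in host liver, 29 to 33 in host kidney and 24 to 26 in control liver. The 9 tested genes that stood above background on no control liver array were Top2a, Ccnb1, Bub1, Bub1b, Nek2, Melk, Tpx2, Kif11 and Nusap1, each of which acts in mitosis or just before it. These 9 entered the test only through tissues in which they were bright, so their differences to control liver are given as lower bounds. An adjusted p printed beside any lower bound in this report belongs to the measured difference, not to the bound. It is not read as support for the bound.

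**Figure D1:**
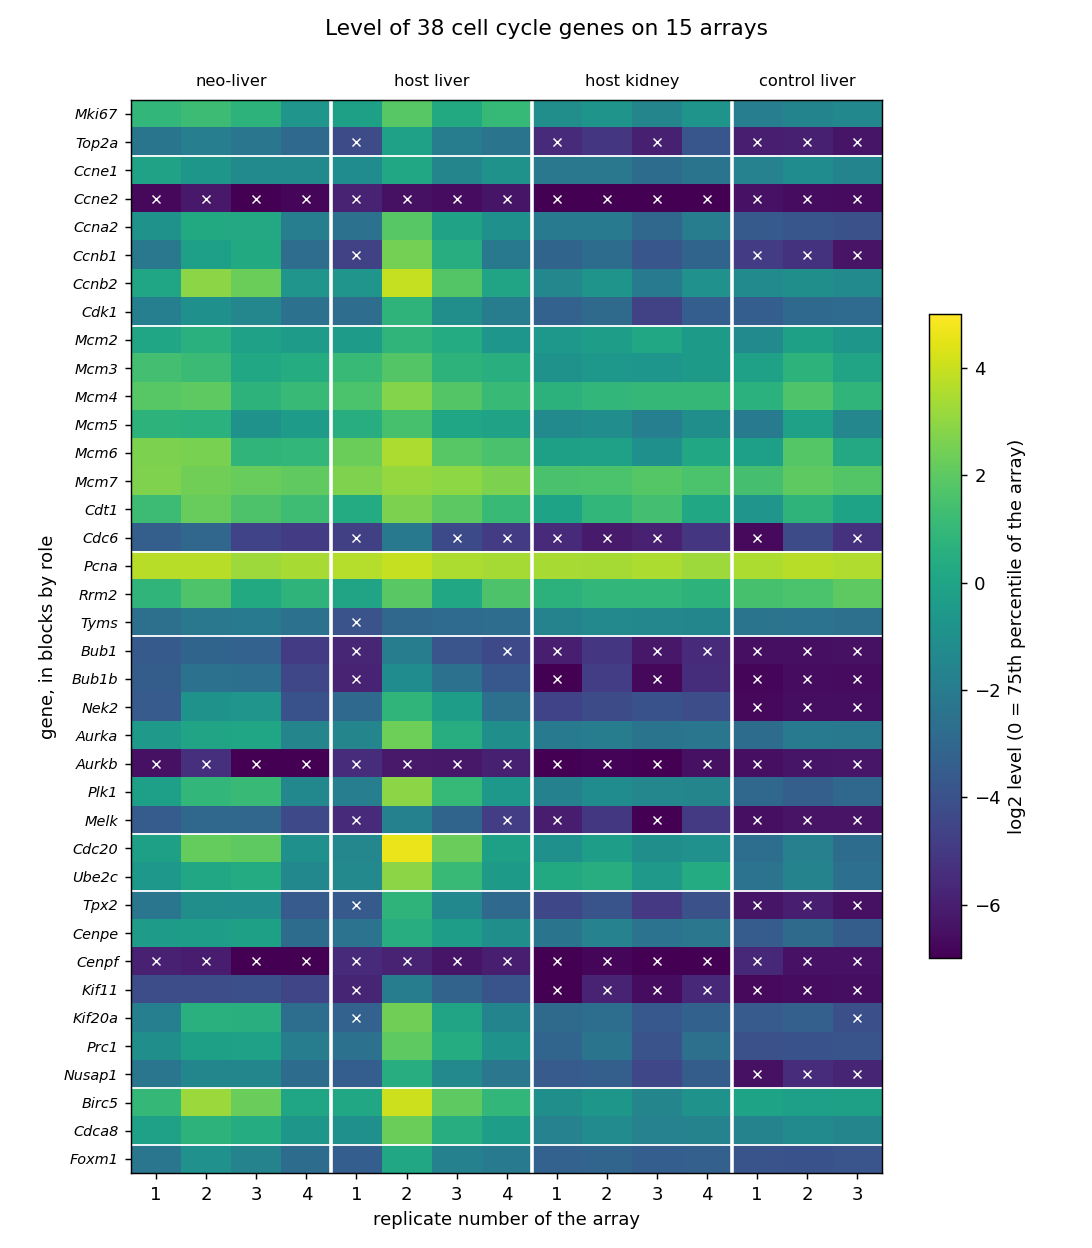
Log2 level of each of the 38 genes (rows, in blocks by role) on each of the 15 arrays (columns, by tissue and replicate number), where 0 is the 75th percentile of the array and a white cross marks a spot not well above background. Host liver 2 is the brightest host liver column for 34 of the 35 tested genes, and crosses are most frequent among the mitosis genes of the control livers.

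Most mitosis genes were called higher in both the neo-liver and the injured host liver than in the control liver. Of the tested genes, 21 were called higher and 0 lower in neo-liver than in control liver, where 20.4% of all genes tested were called higher and 29.8% lower. In host liver against control liver 22 were called higher and 0 lower, where 13.4% of all genes were called higher and 11.2% lower. The groups did not overlap, with neo-liver above control liver, for 25 genes (21.9% of all genes), and with host liver above control liver for 25 genes (21.5% of all genes). Host liver lay below control liver without overlap for 1 gene, Tyms, as did 16% of all genes. These counts include the 9 genes whose probe used here was below background on every control liver array. Of the 26 genes above background on at least 1 control liver array, 12 were called higher in neo-liver and 13 in host liver, and of all genes detected in the same way 16.7% were called higher in neo-liver and 13.9% in host liver. By role, 10 of the 15 mitosis and cyclin genes among the 26 were called higher in neo-liver and 10 in host liver, and 2 of the 11 replication genes were in neo-liver and 3 in host liver. The difference between the roles was not tested. The median log2 difference of the mitosis and cyclin genes was 2.81 in neo-liver and 2.85 in host liver, or 2.06 in neo-liver and 2.42 in host liver with the 9 dim genes at their bounds. The replication genes had medians of 0.59 in neo-liver and 0.86 in host liver, and all genes tested had medians of -0.15 in neo-liver and 0.08 in host liver. Both comparisons share the 3 control livers. Of 23 genes above background on every array, 12 were called higher in neo-liver and 14 in host liver. The share of all genes under this filter is not set beside these counts, so they are not read against it. The count for host liver came to 12 without control liver 1, 12 without control liver 3 and 10 in a fit of the 2 tissues alone, and with slide as a random block it was 21. Of all genes tested, 1206 to 2233 were called higher in host liver when single arrays were left out, against 2099 in the main fit.

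**Figure D2:**
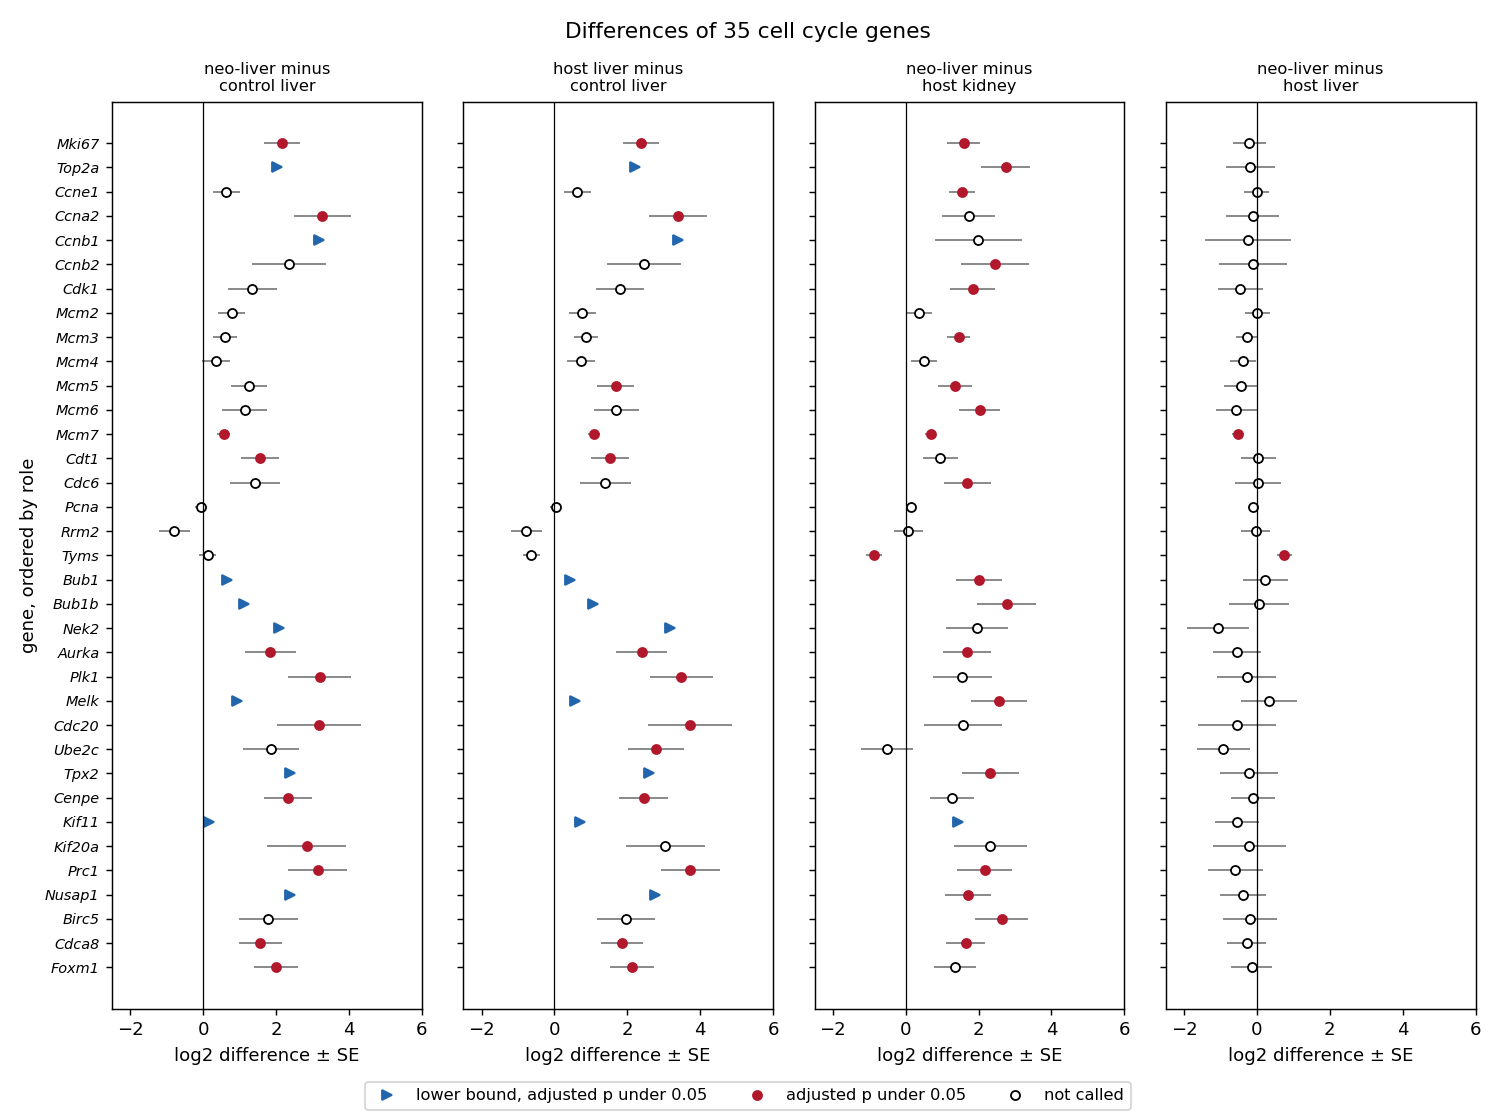
Log2 difference with its SE for the 35 tested genes (rows, by role) in 4 comparisons, with called genes filled red, genes not called open and lower bounds, where one tissue was not well above background, as blue triangles. The mitosis genes lie right of 0 in both comparisons with control liver, Pcna lies near 0 in all 4 panels, and in neo-liver minus host liver only Mcm7 and Tyms are filled.

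The proliferation marker Mki67 and the DNA untangling enzyme gene Top2a were higher in both liver tissues of the hosts than in the control liver. Mki67, whose protein coats mitotic chromosomes, had log2 levels of 0.97, 1.23, 0.77 and -0.75 in neo-liver and -0.18, 1.89, 0.31 and 1.03 in host liver. Mki67 stood at -1.05, -0.80, -1.55 and -0.78 in host kidney and -1.85, -1.60 and -1.38 in control liver. Every neo-liver and host liver array exceeded every control liver array. The difference was 2.16 ± 0.49 between neo-liver and control liver (SE, adjusted p = 0.00246), 2.37 ± 0.49 between host liver and control liver (adjusted p = 0.00411) and 1.60 ± 0.45 between neo-liver and host kidney (adjusted p = 0.00903). A second Mki67 probe gave 2.59 for neo-liver against control liver, 2.68 for host liver against control liver and 2.18 for neo-liver against host kidney. Top2a, the topoisomerase of dividing cells, had levels of -2.33, -1.85, -2.31 and -2.91 in neo-liver and -4.25, -0.11, -1.94 and -2.37 in host liver. Top2a stood at -5.50, -5.12, -5.95 and -3.81 in host kidney and -6.00, -5.93 and -6.33 in control liver. The 3 control livers, host liver 1 and host kidneys 1 and 3 were not well above background. Top2a was at least 4.1-fold higher in neo-liver than in control liver (adjusted p = 0.000843), at least 4.6-fold higher in host liver than in control liver (adjusted p = 0.00233), and higher in neo-liver than in host kidney by 2.75 ± 0.67 (adjusted p = 0.00376).

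**Figure D3:**
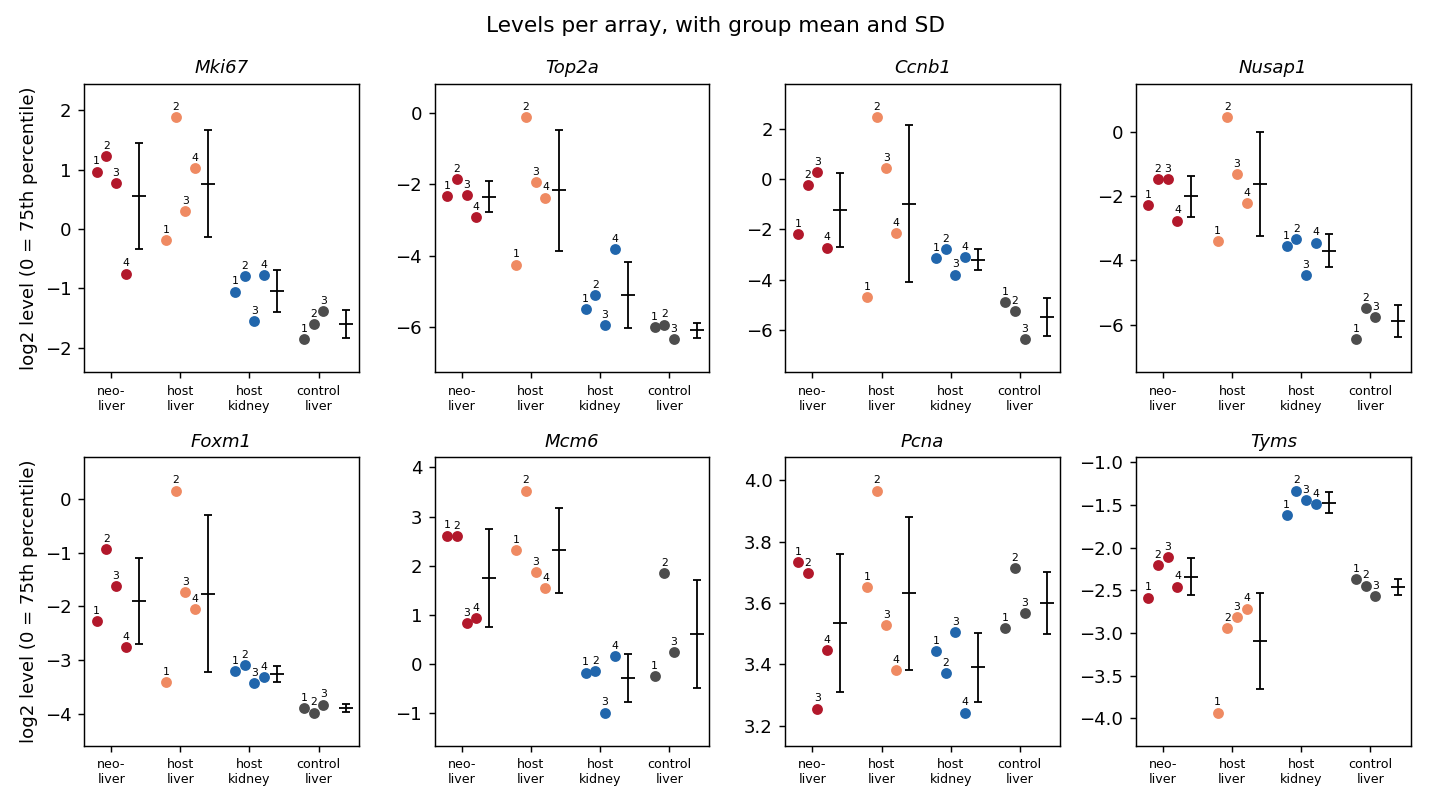
Log2 level (0 is the 75th percentile of the array) of 8 genes on each array, numbered by replicate, with the group mean and SD in black at the right of each group. For Mki67 and Foxm1 all neo-liver and host liver points lie above the control livers, Pcna overlaps in all groups, and Tyms is highest in host kidney.

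Among the cyclin genes, Ccna2 and Ccnb1 were called higher in both liver tissues of the hosts than in the control liver, while Ccnb2, Ccne1 and the kinase gene Cdk1 were not called against it. Ccna2, the cyclin of S phase and early mitosis, had levels of -0.85, 0.30, 0.25 and -1.86 in neo-liver and -2.52, 1.90, -0.10 and -0.98 in host liver. Ccna2 stood at -2.11, -2.04, -2.98 and -1.97 in host kidney and -3.62, -3.79 and -4.02 in control liver. It was higher in neo-liver than in control liver by 3.27 ± 0.79 (adjusted p = 0.00384) and in host liver than in control liver by 3.39 ± 0.79 (adjusted p = 0.00823), with no overlap in either comparison. Ccnb1, the cyclin that starts mitosis with Cdk1, had levels of -2.19, -0.23, 0.30 and -2.73 in neo-liver and -4.69, 2.48, 0.45 and -2.14 in host liver. Ccnb1 stood at -3.13, -2.77, -3.80 and -3.11 in host kidney and -4.90, -5.24 and -6.36 in control liver. Host liver 1 and the 3 control livers were not well above background for Ccnb1. It was at least 9.0-fold higher in neo-liver than in control liver (adjusted p = 0.0134) and at least 10.6-fold higher in host liver than in control liver (adjusted p = 0.0215). Cdk1, the mitotic kinase itself, had levels of -1.84, -0.99, -1.43 and -2.52 in neo-liver and -2.73, 0.79, -1.08 and -1.96 in host liver. Cdk1 stood at -3.21, -2.87, -4.62 and -3.43 in host kidney and -3.40, -2.90 and -2.82 in control liver. Cdk1 was higher in neo-liver than in host kidney by 1.84 ± 0.62 (adjusted p = 0.0234), whereas against control liver it differed by 1.35 ± 0.67 in neo-liver (adjusted p = 0.110) and by 1.80 ± 0.67 in host liver (adjusted p = 0.0659). A second Cdk1 probe gave -0.47 in neo-liver and 0.17 in host liver against control liver, so size and sign depended on the probe. Ccnb2, a further B-type cyclin, lay above control liver without overlap in both but was not called, at 2.35 ± 1.01 in neo-liver (adjusted p = 0.0682) and 2.46 ± 1.01 in host liver (adjusted p = 0.0927). Ccne1, which drives entry into S phase, differed from control liver by 0.63 ± 0.37 in neo-liver (adjusted p = 0.176) and by 0.63 ± 0.37 in host liver (adjusted p = 0.237), but was higher in neo-liver than in host kidney by 1.55 ± 0.35 (adjusted p = 0.00204).

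Of the 6 tested kinase and checkpoint genes of mitosis, Plk1 and Aurka were detected in control liver and were called higher in both liver tissues of the hosts. The other 4 were not well above background on any control liver array and entered the test through tissues in which they were bright. Nek2, a kinase that parts the centrosomes, had levels of -3.55, -0.90, -0.74 and -3.97 in neo-liver and -2.88, 0.87, -0.28 and -2.59 in host liver. Nek2 stood at -4.58, -4.27, -3.99 and -4.17 in host kidney and -6.73, -6.55 and -6.57 in control liver, where no array was above background. All host arrays of the 3 tissues exceeded all control livers. Nek2 was at least 4.2-fold higher in neo-liver than in control liver (adjusted p = 0.00151) and at least 8.9-fold higher in host liver than in control liver (adjusted p = 0.0013). Plk1, a kinase needed for spindle formation and exit from mitosis, had levels of -0.24, 0.92, 1.09 and -1.42 in neo-liver and -1.86, 2.90, 1.03 and -0.59 in host liver. Plk1 stood at -1.71, -1.17, -1.45 and -1.52 in host kidney and -3.00, -3.35 and -2.98 in control liver. It was higher in neo-liver than in control liver by 3.20 ± 0.87 (adjusted p = 0.0078) and in host liver than in control liver by 3.48 ± 0.87 (adjusted p = 0.0118). Bub1b, which encodes the spindle checkpoint protein BubR1, was at least 2.2-fold higher in neo-liver and at least 2.1-fold higher in host liver than in control liver, and higher in neo-liver than in host kidney by 2.77 ± 0.81 (adjusted p = 0.0111). Melk and Bub1, for a further cell cycle kinase and a further checkpoint kinase, had bounds of 1.3-fold to 1.9-fold in these comparisons with control liver. Aurka, the centrosome kinase, was called in both, at 1.84 ± 0.71 in neo-liver (adjusted p = 0.0446) and 2.39 ± 0.71 in host liver (adjusted p = 0.0269). With single arrays left out, Aurka lost its call in 6 of 7 fits for neo-liver and 4 of 7 for host liver.

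Most genes of chromosome movement and mitotic exit were higher in the liver tissues of the hosts than in the control liver. Cdc20, which activates the ubiquitin ligase that ends metaphase, had levels of -0.18, 2.16, 2.04 and -0.97 in neo-liver and -1.45, 4.65, 2.25 and -0.17 in host liver. Cdc20 stood at -0.97, -0.32, -1.04 and -0.93 in host kidney and -2.67, -1.77 and -2.76 in control liver. It was higher in neo-liver than in control liver by 3.16 ± 1.15 (adjusted p = 0.0352) and in host liver than in control liver by 3.72 ± 1.15 (adjusted p = 0.0326). Cdc20 lost its call in 5 of 7 fits with single arrays left out for neo-liver and 5 of 7 for host liver. Ube2c, the ubiquitin-conjugating enzyme of the same ligase, overlapped between neo-liver and host kidney, with levels of -0.60, 0.14, 0.38 and -1.38 in neo-liver and 0.28, 0.45, -0.52 and 0.40 in host kidney, against -2.43, -1.62 and -2.63 in control liver. Its host liver levels were -1.35, 2.91, 1.11 and -0.45, and the gene is shown because of its kidney level, a choice made after its values were seen. The difference between neo-liver and host kidney was -0.52 ± 0.72 (adjusted p = 0.569), and between host liver and control liver it was 2.78 ± 0.78 (adjusted p = 0.0200). Prc1, which bundles the microtubules of the midzone, was higher than in control liver by 3.13 ± 0.81 in neo-liver (adjusted p = 0.00577) and by 3.72 ± 0.81 in host liver (adjusted p = 0.00556). Nusap1, a spindle microtubule binder, was at least 5.2-fold higher in neo-liver (adjusted p = 0.000391) and at least 6.7-fold higher in host liver (adjusted p = 0.000915) than in control liver. Tpx2, which activates Aurora A on the spindle, was at least 5.2-fold higher in neo-liver (adjusted p = 0.00106) and at least 6.0-fold higher in host liver (adjusted p = 0.00274) by its brightest probe. Another kept Tpx2 probe differed from control liver by -0.06 in neo-liver and 0.24 in host liver, so the probes disagree. Cenpe, a kinetochore motor, was called in both, at 2.33 ± 0.66 in neo-liver and 2.44 ± 0.66 in host liver. Kif20a, a motor of cytokinesis, was called in neo-liver at 2.84 ± 1.08 (adjusted p = 0.0428), while it differed by 3.04 ± 1.08 in host liver (adjusted p = 0.0561). The Kif20a call in neo-liver was lost in 5 of 7 fits with single arrays left out. Kif11 had bounds of 1.1-fold in neo-liver and 1.6-fold in host liver. Birc5, the survivin of the chromosomal passenger complex, differed from control liver by 1.79 ± 0.80 in neo-liver (adjusted p = 0.0779) and 1.96 ± 0.80 in host liver (adjusted p = 0.0894). Its partner Cdca8 was called in both, at 1.57 ± 0.58 in neo-liver (adjusted p = 0.0369) and 1.85 ± 0.58 in host liver (adjusted p = 0.0334). With single arrays left out, Cdca8 lost its call in 6 of 7 fits for neo-liver and 4 of 7 for host liver.

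Foxm1, the transcription factor that switches on many mitotic genes, was higher in both liver tissues of the hosts than in the control liver. Its levels were -2.28, -0.94, -1.62 and -2.75 in neo-liver and -3.40, 0.15, -1.74 and -2.06 in host liver. Foxm1 stood at -3.20, -3.08, -3.42 and -3.31 in host kidney and -3.89, -3.97 and -3.82 in control liver. All host arrays lay above all control livers, and the difference to control liver was 1.99 ± 0.61 for neo-liver (adjusted p = 0.0153) and 2.13 ± 0.61 for host liver (adjusted p = 0.0228).

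Of the 11 replication genes, 2 were called higher in neo-liver than in control liver, a share near the 20.4% of all genes, and 3 in host liver, where the share of all genes was 13.4%. Of the MCM helicase genes, Mcm7 was called in every comparison, and its levels were 2.68, 2.39, 2.20 and 2.06 in neo-liver and 2.70, 3.11, 2.98 and 2.62 in host liver. Mcm7 stood at 1.58, 1.58, 1.85 and 1.60 in host kidney and 1.48, 2.04 and 1.78 in control liver. It was higher in neo-liver than in control liver by 0.57 ± 0.18 (adjusted p = 0.0166), higher in host liver than in control liver by 1.08 ± 0.18 (adjusted p = 0.00102) and lower in neo-liver than in host liver by 0.52 ± 0.16, a log2 difference of -0.52 (adjusted p = 0.0186). Mcm2, another subunit, had levels of 0.10, 0.63, -0.13 and -0.34 in neo-liver and -0.35, 0.86, 0.39 and -0.68 in host liver. Mcm2 stood at -0.61, -0.31, 0.15 and -0.46 in host kidney and -1.32, -0.17 and -0.64 in control liver. Its groups overlapped in each comparison, it was called in none, and its difference to control liver was 0.78 ± 0.37 in neo-liver (adjusted p = 0.0954) and 0.76 ± 0.37 in host liver (adjusted p = 0.147). Mcm6 had levels of 2.61, 2.60, 0.84 and 0.94 in neo-liver and 2.32, 3.53, 1.86 and 1.55 in host liver. Mcm6 stood at -0.17, -0.15, -0.98 and 0.16 in host kidney and -0.25, 1.84 and 0.24 in control liver. Control liver 2 stood above neo-livers 3 and 4, and Mcm6 was called against host kidney, by 2.03 ± 0.56 in neo-liver (adjusted p = 0.00813) and 2.60 ± 0.56 in host liver (adjusted p = 0.000985), but not against control liver. Mcm5 was higher in host liver than in control liver by 1.68 ± 0.50 (adjusted p = 0.0276), and Cdt1, which loads the helicase, was higher than in control liver by 1.56 ± 0.52 in neo-liver (adjusted p = 0.0230) and 1.52 ± 0.52 in host liver (adjusted p = 0.0479). Cdt1 lost its call in 3 of 7 fits with single arrays left out for neo-liver and 5 of 7 for host liver. Mcm5 lost its call in host liver in 3 of 7.

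The genes of the replication clamp and of nucleotide supply were not called against the control liver in the main fit. Calls came only with the kidney share subtracted from the neo-liver arrays and, for Tyms, in 1 of 7 fits with a single array left out. In that fit Tyms was lower in host liver than in control liver (adjusted p = 0.0433). Pcna, the sliding clamp of DNA polymerase, had levels of 3.73, 3.70, 3.26 and 3.45 in neo-liver and 3.65, 3.97, 3.53 and 3.38 in host liver. Pcna stood at 3.44, 3.37, 3.51 and 3.24 in host kidney and 3.52, 3.71 and 3.57 in control liver. The groups overlapped in each comparison, and the difference to control liver was -0.07 ± 0.15 in neo-liver (adjusted p = 0.735) and 0.03 ± 0.15 in host liver (adjusted p = 0.898). Rrm2, a subunit of ribonucleotide reductase, differed from control liver by -0.80 ± 0.43 in neo-liver (adjusted p = 0.136) and -0.77 ± 0.43 in host liver (adjusted p = 0.209). Tyms, the thymidylate synthase, had levels of -2.59, -2.21, -2.11 and -2.46 in neo-liver and -3.93, -2.94, -2.81 and -2.71 in host liver. Tyms stood at -1.62, -1.33, -1.44 and -1.49 in host kidney and -2.37, -2.44 and -2.56 in control liver. Host kidney was highest without overlap, and host liver 1 was not well above background. Tyms was lower in neo-liver than in host kidney, at -0.87 ± 0.22 (adjusted p = 0.00454), and above the host liver in neo-liver, at 0.76 ± 0.22 (adjusted p = 0.0119). Once the kidney share was subtracted from the neo-liver arrays, the difference to host liver turned to -0.56 (adjusted p = 0.192) and the difference to control liver, 0.12 ± 0.24 before, to -1.20 (adjusted p = 0.0180). With the same subtraction Pcna was lower in neo-liver than in control liver, at -0.53 (adjusted p = 0.0221), and than in host liver, at -0.56 (adjusted p = 0.0105), and Rrm2 was lower than in control liver, at -1.25 (adjusted p = 0.0221). The subtraction can only lower a neo-liver signal, and the remainder was not rescaled. Most of all genes tested were then called lower against control liver and against host liver. These falls are therefore not read as results about Pcna, Rrm2 or Tyms. In host liver, Tyms was lower than in host kidney, at -1.63 ± 0.22 (adjusted p = 1.57e-05).

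Against the host kidney, which surrounded the neo-liver, 20 tested genes were called higher and 1, Tyms, lower in neo-liver, where 23.2% of all genes tested were called higher and 29.5% lower. Neo-liver lay above host kidney without overlap for 25 genes (21% of all genes) and below it for 1 (28.4% of all genes). Of the genes called higher, 15 were mitosis and cyclin genes and 5 were replication genes. Top2a, Bub1, Bub1b, Melk, Kif11 and Cdc6 were among the genes called higher. They passed the filter on dim probes only through neo-liver, so their calls are not read as independent support. Of the 34 genes above background on at least 1 array of each tissue, 19 were called higher, against 22.9% of all genes so detected. Median differences were 1.90 over the 24 mitosis and cyclin genes, 0.68 over the 11 replication genes and -0.09 over all genes, and with Kif11 at its bound the first was 1.79. Among genes above background on every array of both tissues, Birc5 differed by 2.63 ± 0.74 (adjusted p = 0.00883) and Ccnb2 by 2.46 ± 0.94 (adjusted p = 0.0409). With single arrays left out, Ccnb2 lost its call in 6 of 8 fits and Birc5 in 0 of 8. Melk differed by 2.55 ± 0.77 (adjusted p = 0.0130), but Melk, Top2a and Bub1b were above background on only 2 of 4 host kidney arrays. Bub1 and Cdc6, also called higher, were above background on only 1 of 4. The size of the difference for each of these genes rests in part on dim spots. Kif11, the motor that pushes the spindle poles apart, was above background on no host kidney array and at least 2.7-fold higher in neo-liver (adjusted p = 0.00982). With the mouse as a block 27 genes were called higher, the additions being Ccna2 (adjusted p = 0.0320, against 0.0614 without the block), Ccnb1 (0.0398, against 0.175), Cdt1 (0.00993, against 0.111), Nek2 (0.0353, against 0.0657), Plk1 (0.0212, against 0.121), Kif20a (0.0283, against 0.0671) and Foxm1 (0.0109, against 0.0586). The count came to 11 without neo-liver 2, 12 without host kidney 3 and 12 with normexp background correction. Of all genes tested, 3248 to 3561 were called higher when single arrays were left out, against 3622 in the main fit. Counts of all genes with the block or with normexp are not set beside these.

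Between host liver and host kidney, 25 tested genes were called higher and 1, Tyms, lower in host liver, where 39.6% of all genes tested were called higher and 31.2% lower. Host liver lay above host kidney without overlap for 15 genes (34.6% of all genes) and below it for 1 (27.9% of all genes). Mitosis and cyclin genes had a median difference of 2.21 (2.17 with Kif11 at its bound), replication genes of 0.91 and all genes of 0.14. Mcm6 and Mcm3 were among the called helicase genes, the second at 1.72 ± 0.31 (adjusted p = 0.00022). With the mouse as a block Ccna2 (adjusted p = 0.0715), Cdc6 (0.0612), Melk (0.0643), Kif20a (0.0525) and Foxm1 (0.0546) lost their call, and Cdt1 (0.0172) and Cenpe (0.0284) gained one.

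Between the neo-liver and the host liver, 1 of 35 tested genes, Tyms, was called higher and 1, Mcm7, lower in neo-liver, where 17.1% of all genes tested were called higher and 31.5% lower. The median difference was -0.21, the same as that of all genes at -0.21. Mki67 differed by -0.21 ± 0.45 (adjusted p = 0.727), Top2a by -0.18 ± 0.67 (adjusted p = 0.842), Ccnb1 by -0.24 ± 1.19 (adjusted p = 0.881) and Nek2 by -1.07 ± 0.84 (adjusted p = 0.311). With the mouse as a fixed block Nek2 was called lower in neo-liver (adjusted p = 0.0189), but not with the mouse as a random block (adjusted p = 0.165). Neither the Tyms nor the Mcm7 call was made with quantile normalization, normexp background correction or a fit of the 2 tissues alone, and 0 members were lower without host liver 2 or without neo-liver 4, against 2 without host liver 1. With an SE of 0.45 for Mki67 and 1.19 for Ccnb1, differences as small as these SEs were not detectable.

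The spread between arrays was widest in host liver, and most cell cycle genes followed one order there. The range over the arrays of a group had a median over the 35 genes of 1.76 in neo-liver, 3.75 in host liver, 0.90 in host kidney and 0.50 in control liver, and reached 7.17 in host liver, for Ccnb1. Host liver 2 was highest for 34 of 35 genes and host liver 1 lowest for 26, and the order 2, 3, 4, 1 from high to low held for 23. Host liver 1 still exceeded the highest control liver for 24 of 24 mitosis and cyclin genes but for 4 of 11 replication genes. In neo-liver, array 4 was lowest for 26 genes, and arrays 2 and 3 both exceeded arrays 1 and 4 for 23. With equal numbers set side by side, neo-liver 1 exceeded host liver 1 for 33 genes, neo-liver 2 exceeded host liver 2 for 1, neo-liver 3 exceeded host liver 3 for 14 and neo-liver 4 exceeded host liver 4 for 5.

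**Figure D4:**
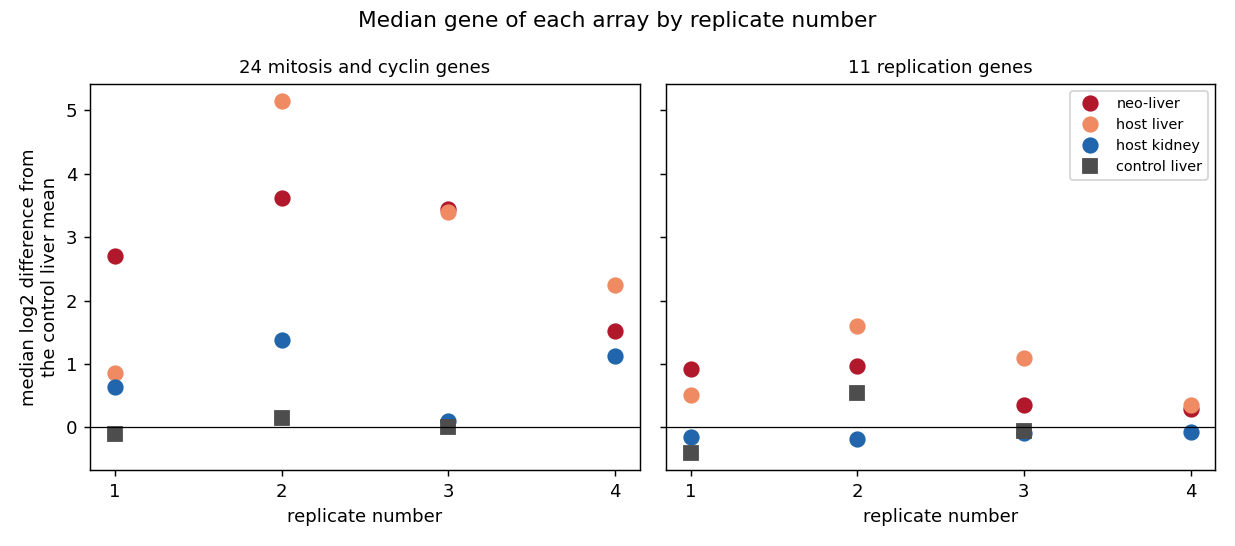
Median log2 difference from the control liver mean over 24 mitosis and cyclin genes (left) and 11 replication genes (right) on each array, by replicate number, with a colour for each tissue. The mitosis median of host liver ranges from 0.85 on array 1 to 5.14 on array 2, and the replication medians stay within 1.60 of the control liver mean.

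Markers of other cell types also differed between the tissues, and these lists do not separate dividing cells from mature ones. In host liver those of neutrophils and red cells ran in another order than the cell cycle genes, while those of bile duct and simple epithelium had the same highest and lowest array. The summed signals of 8 neutrophil and precursor markers were 50378, 3133, 6113 and 11109% of the 75th percentile in neo-livers 1 to 4, 14812, 1152, 3205 and 4733% in host livers 1 to 4, 1236 to 2570% in host kidney and 800 to 936% in control liver. In both liver tissues they were highest on array 1 and lowest on array 2, the array on which 19 of 35 cell cycle genes were highest in neo-liver and 34 in host liver. Erythroid markers, 6 of 7 above background on all arrays, summed to 7268 to 30804% in neo-liver, 17729 to 71472% in host liver, 14958 to 58951% in host kidney and 6173 to 9742% in control liver, and among the host livers array 2 was again lowest. T and NK cell markers summed to 3553 to 7357% in neo-liver, 2613 to 3840% in host liver, 1684 to 2596% in host kidney and 2711 to 3299% in control liver, and macrophage and myeloid markers to 13874 to 19992% in neo-liver, 19075 to 31088% in host liver, 5193 to 8812% in host kidney and 13622 to 21335% in control liver. Stellate and mesenchymal markers summed to 9122 to 17188% in neo-liver, 9709 to 10755% in host liver, 1791 to 3363% in host kidney and 5467 to 6673% in control liver. B and plasma cell markers summed to 349 to 1426% in neo-liver, 262 to 528% in host liver, 687 to 2266% in host kidney and 95.5 to 119% in control liver. The 8 markers of bile duct and simple epithelium summed to 2781, 5265, 2317 and 3958% in neo-livers 1 to 4, 874, 2563, 1028 and 1953% in host livers 1 to 4, 8487 to 10528% in host kidney and 591 to 766% in control liver. Both liver tissues of the hosts lay above control liver for them, and array 2 was highest in both, as for most cell cycle genes. In neo-liver the next highest was array 4, which was lowest for 26 of 35 cell cycle genes. Their order over neo-livers 1 to 4 was that of the kidney share (19.5%, 49.3%, 18.0% and 32.5%), and host kidney was highest for them. The part of kidney tissue in these sums was not tested. Endothelial markers summed to 4944 to 8111% in neo-liver, 9372 to 16708% in host liver, 1470 to 1881% in host kidney and 9329 to 9976% in control liver. The part of these cells in the cell cycle values was not tested. With the kidney share subtracted from the neo-liver arrays, 18 genes were higher than in host kidney and 19 higher than in control liver.

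The other genes of the cycle, 135 listed and 118 tested, are given by their role. Of 41 further mitosis genes, 23 were called higher and 0 lower in neo-liver than in control liver, and 23 higher and 1 lower in host liver. Of the 28 that were above background on at least 1 control liver array, 13 were called higher in each, against 16.7% of all genes so detected in neo-liver and 13.9% in host liver. Ckap2, a spindle protein, was at least 4.6-fold higher in neo-liver (adjusted p = 0.00496) and at least 6.8-fold higher in host liver (adjusted p = 0.00612) than in control liver. Of 36 further replication genes, 4 were called higher and 6 lower in neo-liver than in control liver, and 9 higher and 2 lower in host liver. Of all genes tested, 20.4% were called higher and 29.8% lower in neo-liver, and 13.4% higher and 11.2% lower in host liver, so both shares of these genes in neo-liver lay below those of all genes. Uhrf1, which maintains DNA methylation at forks, was higher in neo-liver by 2.13 ± 0.63 (adjusted p = 0.0129), whereas the helicase activator Mcm10 was lower, at -2.42 ± 0.52 (adjusted p = 0.00173), and the thymidine kinase gene Tk1 was lower, at -1.66 ± 0.42 (adjusted p = 0.00525). Mcm10 averaged 1.45 in neo-liver, 3.66 in host liver, -1.51 in host kidney and 3.87 in control liver. Against host kidney, Cenpm, a centromere gene above background on no host kidney array, was at least 35.6-fold higher in neo-liver (adjusted p = 8.42e-07), while it differed from control liver by 0.06 ± 0.63 (adjusted p = 0.946).

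Among the regulators of entry into the cycle, some activators and some inhibitors were higher than in control liver. Ccnd1, cyclin D1, was higher by 1.05 ± 0.33 in neo-liver (adjusted p = 0.0167) and by 0.95 ± 0.33 in host liver (adjusted p = 0.0481), and of 8 D cyclin and G1 kinase genes 3 were called higher in each, with 1 lower in neo-liver and 0 in host liver. E2f8, a repressor of the E2F family, was higher by 1.35 ± 0.39 in neo-liver (adjusted p = 0.0104) and 1.80 ± 0.39 in host liver (adjusted p = 0.00512), and E2f1, an activator, by 1.09 ± 0.29 in host liver (adjusted p = 0.0157) with 0.43 ± 0.29 in neo-liver (adjusted p = 0.235). Of 7 Cdk inhibitor genes, 5 were called higher in neo-liver and 3 in host liver. The shares of all genes called higher, for both lists, were 20.4% in neo-liver and 13.4% in host liver. Cdkn2a, which encodes p16 and p19ARF, was above background on no control liver array and at least 7.2-fold higher in neo-liver (adjusted p = 1.95e-06) and at least 15.8-fold higher in host liver (adjusted p = 5.11e-06). Cdkn1a, for p21, was higher by 2.34 ± 0.77 in neo-liver (adjusted p = 0.0214) and by 3.03 ± 0.77 in host liver (adjusted p = 0.0126). Between neo-liver and host liver, Cdkn2a was lower in neo-liver, at -1.15 ± 0.39 (adjusted p = 0.0267), while Cdkn1c, for p57, was higher by 1.26 ± 0.25 (adjusted p = 0.00105) and Cdkn2b, for p15, by 0.94 ± 0.35 (adjusted p = 0.0423). The last 2 were chosen after their values were seen, as the other inhibitors called in that comparison. Against host kidney, E2f8 was higher in neo-liver by 4.97 ± 0.36 (adjusted p = 7.96e-08), and 2 of 4 host kidney arrays were above background.

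Short promoter motifs were counted by role, as a description with no test. Windows from 250 bases before to 50 after the start of the gene (RefSeq, build GRCm38.p6) were found for 31 of the 38 genes, 33 windows in all, and searched on both strands for the cell cycle homology region (CHR, TTTGAA or TTTAAA, the second being its own reverse complement), for CCAAT, and for E2F motifs (TTTGGCG or TTTCCCG or TTTGCCG or TTTCGCG). A CHR stood in 81.8% (18 of 22) of the windows of mitosis and cyclin genes, 27.3% (3 of 11) of those of replication genes and 27.6% of 32851 windows of all genes. An E2F motif stood in 22.7% of the mitosis and cyclin windows, 54.5% of the replication windows and 6.7% of all windows, and at least 2 CCAAT in 54.5% of the mitosis and cyclin windows, 36.4% of the replication windows and 11.7% of all windows. The 200 bases before the start are shown for 3 mitosis genes, 2 helicase genes and Tyms, with motif letters in capitals, where adjoining E2F motifs on opposite strands can share letters.
Ccnb1: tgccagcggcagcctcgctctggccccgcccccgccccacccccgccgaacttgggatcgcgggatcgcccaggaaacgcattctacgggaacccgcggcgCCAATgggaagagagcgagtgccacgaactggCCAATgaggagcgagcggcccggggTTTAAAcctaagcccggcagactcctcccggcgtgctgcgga
Cdc20: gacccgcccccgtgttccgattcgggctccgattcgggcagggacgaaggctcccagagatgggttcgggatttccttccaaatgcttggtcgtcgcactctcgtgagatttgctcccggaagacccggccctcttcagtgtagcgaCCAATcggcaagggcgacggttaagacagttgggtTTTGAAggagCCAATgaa
Plk1: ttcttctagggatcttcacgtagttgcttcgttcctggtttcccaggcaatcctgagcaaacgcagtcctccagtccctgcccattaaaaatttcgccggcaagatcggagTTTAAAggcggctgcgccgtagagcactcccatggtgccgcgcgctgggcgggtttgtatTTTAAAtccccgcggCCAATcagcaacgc
Mcm5: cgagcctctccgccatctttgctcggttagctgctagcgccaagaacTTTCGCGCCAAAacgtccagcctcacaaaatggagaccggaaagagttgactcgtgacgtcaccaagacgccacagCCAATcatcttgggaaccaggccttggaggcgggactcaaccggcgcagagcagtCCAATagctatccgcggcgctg
Mcm6: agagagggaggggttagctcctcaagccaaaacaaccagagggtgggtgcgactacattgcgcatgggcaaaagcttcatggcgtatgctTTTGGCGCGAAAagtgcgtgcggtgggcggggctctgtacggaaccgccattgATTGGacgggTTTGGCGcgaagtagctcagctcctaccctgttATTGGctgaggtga
Tyms: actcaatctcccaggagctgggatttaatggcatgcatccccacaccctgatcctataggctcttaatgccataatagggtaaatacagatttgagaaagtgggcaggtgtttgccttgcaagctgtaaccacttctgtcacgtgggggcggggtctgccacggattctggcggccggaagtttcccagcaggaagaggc
Ccnb1 lies at chr13:100786487-100786686 (minus strand) with a CCAAT at -99 and -67 and a CHR at -42, where the leftmost base is counted from the start. Cdc20 lies at chr4:118437344-118437543 (minus strand) with a CHR at -18 between a CCAAT at -53 and one at -8, and Plk1 at chr7:122159235-122159434 (plus strand) with a CHR at -89 and -29 and a CCAAT at -14. Mcm5 at chr8:75109309-75109508 (plus strand) has E2F motifs at -153 and -148, and Mcm6 at chr1:128359706-128359905 (minus strand) at -110, -105 and -47, both with a pair of CCAAT and no CHR in the shown stretch. Tyms at chr5:30073626-30073825 (minus strand) has none of these letters in the stretch. The same stretch of Nusap1, whose letters are not shown, has none of them either. Nusap1 is a mitosis gene that was called higher in both liver tissues of the hosts than in control liver. Such matches describe these letters only.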

How the data were processed

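Each of 15 tissue samples was hybridised to a one-colour Agilent array. The deposited scanner files give intensity values that Feature Extraction 10.10.1.1 had background-subtracted and detrended array by array, per the file headers and, for the version, per the submitters' processing notes. The deposited series table holds log2 values that matched, within 0.01 and apart from a constant per array, 99.8% of the probes. Here spots were averaged, log2 intensity was set relative to the 75th percentile of the array, probes well above background on every array of at least 1 group were kept, and the brightest probe stood for a gene (15622 genes). Control and outlier spots were left out. One linear model with group means was fitted to the 15 arrays with limma 3.58.1 in R 4.3.3. Differences were tested two-sided with Benjamini-Hochberg adjustment over all genes, and the procedure was tested on simulated data. Lower bounds compare the bright group with the higher of the dim probe's own signal and the lowest signal above background per array. The bounds themselves were not tested. Residuals of equal replicate numbers correlated at 0.179 to 0.577 across the 3 host tissues, each best with its own number, so numbers were taken as mice and blocked in alternatives. Control livers shared only the numbering. Kidney share was taken from 23 kidney markers that were at least 8-fold brighter in kidney than in control liver. It is their median signal relative to host kidney, with the mean control liver signal taken off both. Array-by-array values are given for a fixed set of members and for up to 8 further called members per direction and comparison with the largest difference, and some members that qualify are left unnamed. Up to 3 called genes per direction of each other list, with Ccnd1, Cdkn1a, E2f1 and E2f8, may be named. The members and lists were chosen with earlier results of these data known. Not every alternative could be run, as the closing section states.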

Additional observations from a re-analysis of the deposited data

Results flagged for a closer look

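Within groups of 4 arrays, 5 of 114 gene and group sets had an array whose gap to its nearest neighbour took a larger part of the group's range than Dixon's 95% critical value allows. Chance gives about 1 in 20 sets. The neo-liver set was Cenpe, a kinetochore motor gene, where neo-liver 4 was lowest at -2.75 with the next at -0.42, a gap of 0.905 of the range. The other 4 were in host kidney. Ccna2 was lowest on host kidney 3 (0.865 of the range) and Mcm7 highest there (0.924). Cdc20 (0.844) and Cdca8 (0.888) were highest on host kidney 2.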

How the results depend on the processing

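Calls against the control liver rest on 3 arrays and those against host kidney on a slide of its own, and dim genes near background limit the size of any fold. Of the members called, 12 of 21 in neo-liver against control liver, 7 of 21 in neo-liver against host kidney and 18 of 26 in host liver against host kidney kept their call in every alternative in which they were tested. Among the 12, Top2a, Bub1, Bub1b, Melk, Nusap1 and Tpx2 were above background on no control liver array. They could not be tested with only probes above background on every array, so this share does not address their dimness. In host liver against control liver, 9 of 22 members kept their call without the replicate block. The block by number left 0 members and 9 and 1 of all genes there, and 2461 genes lower in neo-liver against control liver, but the control livers share no mice with the hosts. With the mouse as a fixed block, neo-liver against host liver had 2 members lower, also with slide as a random block, but 1 with the mouse as a random block. The fixed block changed no call of a member in the comparisons of host tissues beyond those given in the report.

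With only probes above background on every array, 23 members were tested. Called higher were then 12 (neo-liver against host kidney), 0 (against host liver), 12 (against control liver), 14 (host liver against control liver) and 15 (host liver against host kidney), with 0 lower in both comparisons with host kidney. Of all genes 1478 were higher in neo-liver against host liver, 2012 higher in neo-liver against control liver and 3058 lower in host liver against host kidney. A fit of the 2 groups alone gave 10 members and 1293 genes higher in host liver against control liver, and 0 higher and 0 lower members between neo-liver and host liver. Quantile normalization and normexp correction also left 0 and 0 there, with 2598 and 2635 genes lower, and median centring left 0 higher. Normexp gave 12 members higher in neo-liver against host kidney, and no filter gave 5503 genes higher. Median centring gave 3243 genes higher and 1189 lower in host liver against control liver, against 2099 and 1755, and 2105 and 7005 in neo-liver against host liver, against 2670 and 4921 and, by quantile normalization, 2688 and 2598. Quantile normalization gave 3610 and 3300 in neo-liver against control liver, against 3184 and 4651. Subtracting the kidney share left 0 members higher and 2 lower in neo-liver against host liver and 3 lower in neo-liver against control liver, and of all genes 2242 higher and 8330 lower against host kidney, 769 and 9753 against host liver and 1216 and 8802 against control liver. It turned Tyms to -0.56 against host liver and -1.20 against control liver, which follows from removing kidney signal.

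Leaving out single arrays gave 11 to 25 members higher in neo-liver against host kidney, 12 to 26 higher and 0 to 1 lower in host liver against control liver with 1206 to 2233 genes higher and 1069 to 1930 lower, and 0 to 2 members lower in neo-liver against host liver. In neo-liver against control liver it gave 15 to 24 and in host liver against host kidney 17 to 30. The causes of these changes were not tested. Detection counts, 24 to 35 members over the 15 arrays, ran from 25 to 35 when any probe of a gene could count. They ran from 20 to 35 when the signal had to be over 2 times the lowest signal above background. Naming by the files' own gene names was not run, nor was the block with a random slide where it could not be estimated.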

Other observations

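Of 8 genes that restrain division without being Cdk inhibitors, 2 were called higher and 1 lower in neo-liver than in control liver, near the 20.4% of all genes called higher there, and 3 higher and 0 lower in host liver, where 13.4% of all genes were higher. Btg2, a p53-induced antiproliferative gene, was higher than in control liver by 2.67 ± 0.72 in neo-liver (limma adjusted p = 0.00729) and by 3.19 ± 0.72 in host liver (adjusted p = 0.00687). Btg3, of the same family, was higher by 1.64 ± 0.21 in neo-liver (adjusted p = 3.02e-05) and by 1.00 ± 0.21 in host liver (adjusted p = 0.00446). Gadd45b, a stress response gene, was higher in host liver by 2.66 ± 0.86 (adjusted p = 0.0384), and Tob1 was lower in neo-liver, at -0.91 ± 0.23 (adjusted p = 0.00464).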
